A study of Mus musculus with 5 samples.

Results

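The genes that encode Polycomb subunits were examined for H3K27me3 of their own. The 9 genes were taken by name: *Ezh1*, *Ezh2* and *Suz12* of Polycomb Repressive Complex 2 (PRC2), and *Cbx2*, *Cbx6*, *Cbx7*, *Cbx8*, *Bmi1* and *Pcgf2* of Polycomb Repressive Complex 1 (PRC1). All 9 were found once in the GENCODE vM1 annotation of the mouse mm9 genome, among 22350 protein-coding genes on chromosomes 1 to 19 and X. The start site (the 5′ end of the gene record) and the gene body of each were compared with peaks of H3K27me3 ChIP-Seq in mouse embryonic fibroblasts (MEFs).

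By the study's methods, all MEF lines derived from an embryo whose *Eed* alleles are floxed, *Eed* encoding the PRC2 subunit that binds H3K27me3. The treated and the reference cells thus share this genotype, with *Eed* not deleted. The 3 groups analysed had 1 library each and were stably transduced by lentivirus with H3.3K27M, H3.3K27R or human EZHIP, from a vector with an EF1a promoter and under puromycin selection. K27M, in which methionine takes the place of the lysine that PRC2 methylates, and EZHIP, a protein of PFA ependymoma, are inhibitors of PRC2. K27R, with arginine at that residue, served as the reference. Parental cells and a line with *Eed* deleted, which is a single clone, were not analysed here. With 1 library per group and lists of positions without read counts, depth was unknown, no difference could be tested, and values are set side by side. A peak that is missing from a list cannot show whether fewer cells carried the mark or whether each cell carried less of it.

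PRC2 places methyl groups on lysine 27 of histone H3 through either of 2 catalytic subunits, EZH1 or EZH2, with SUZ12 as the scaffold of the complex. PRC1 reads the mark through the chromodomain of a CBX protein, and its PCGF subunit, such as BMI1 or PCGF2, pairs with a RING1 protein to ubiquitinate histone H2A. In fibroblasts the mark lies over genes of other lineages, and genes in steady use are commonly free of it.

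The lists agreed in part with the fibroblast label. Of 10 fibroblast genes, 9 had a start site outside the peaks of every list, and the exception, *Pdgfra*, lay in a peak of all 3 lists. Of 11 genes of neural, muscle, blood, endoderm and epithelial lineages found by name, 10 had a start site in K27R peaks, and 8 in K27M and 8 in EZHIP peaks. The lists held 12845 (K27R), 3736 (K27M) and 4992 (EZHIP) peaks.

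Promoter sequences are shown for the members that differed in their relation to the peaks. *Cbx8* had its start site inside K27R and K27M peaks. *Bmi1* had its start site beside a K27R peak that covered 88% of its body. The catalytic subunit genes *Ezh1* and *Ezh2* were free of peaks. RefSeq (GRCm38.p6) promoters matched 8 of the 9 members by symbol, the exception being *Cbx2*. Each of the 8 was found once, without mismatch, in mm9. The 250 bases before the RefSeq start site are printed 5′ to 3′ on the strand of the gene, with every CG dinucleotide in capitals. In mm9 they are chr11:118902228-118902477 (minus strand) for *Cbx8*, chr2:18598395-18598644 (plus) for *Bmi1*, chr11:101087778-101088027 (minus) for *Ezh1* and chr6:47545030-47545279 (minus) for *Ezh2*.
Cbx8: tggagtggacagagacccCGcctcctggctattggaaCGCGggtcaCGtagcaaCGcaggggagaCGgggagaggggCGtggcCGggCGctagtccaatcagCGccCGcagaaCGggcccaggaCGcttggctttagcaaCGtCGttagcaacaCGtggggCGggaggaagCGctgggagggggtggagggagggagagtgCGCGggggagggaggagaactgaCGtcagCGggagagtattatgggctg
Bmi1: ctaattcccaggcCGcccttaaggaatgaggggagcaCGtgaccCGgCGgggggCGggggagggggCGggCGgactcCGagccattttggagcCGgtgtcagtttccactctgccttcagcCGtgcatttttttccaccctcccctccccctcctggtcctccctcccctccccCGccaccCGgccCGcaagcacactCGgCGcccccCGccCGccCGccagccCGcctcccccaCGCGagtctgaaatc
Ezh1: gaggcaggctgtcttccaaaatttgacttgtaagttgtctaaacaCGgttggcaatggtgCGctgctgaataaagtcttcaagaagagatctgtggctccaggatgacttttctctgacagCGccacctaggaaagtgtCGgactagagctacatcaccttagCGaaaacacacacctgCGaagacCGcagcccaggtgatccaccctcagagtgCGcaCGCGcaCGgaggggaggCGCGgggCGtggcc
Ezh2: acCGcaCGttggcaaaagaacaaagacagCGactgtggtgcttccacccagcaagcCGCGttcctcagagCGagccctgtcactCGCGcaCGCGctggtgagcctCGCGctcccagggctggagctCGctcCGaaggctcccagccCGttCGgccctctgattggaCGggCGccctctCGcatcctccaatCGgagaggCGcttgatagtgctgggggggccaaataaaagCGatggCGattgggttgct

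The CG dinucleotides of these promoters were counted. Only the *Cbx8* window lay in a peak, and *Cbx2* had no promoter sequence, so that a link between CG content and the mark was not tested. There were 22 CG dinucleotides in the *Cbx8* window, 21 in *Bmi1*, 14 in *Ezh1* and 23 in *Ezh2*, where the median over 32851 RefSeq promoters was 6. At least as many were found in 14.8% of all promoters for *Cbx8*, 16.3% for *Bmi1*, 29.4% for *Ezh1* and 13.3% for *Ezh2*. *Suz12* had the most among the members, with 37, a number reached by 2.2% of promoters, and *Pcgf2* the fewest, with 5. All 8 RefSeq start sites lay in a CpG island of the mm9 sequence. By the GENCODE start, which for *Cbx7* was 38473 bp upstream of the RefSeq one, 7 of the 9 members did, among them *Cbx2* with an island of 833 bp and *Cbx8* with one of 2479 bp. The window of *Cbx8* lay wholly in K27R and K27M peaks and outside EZHIP peaks, and none of the other 7 windows touched a peak of any list.

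In K27R cells, 2 of the 9 start sites lay in a peak, those of *Cbx2* and *Cbx8* (22.2%). Over all protein-coding genes this share was 30.1%, and over the 10252 genes with a start site in a CpG island it was 23.1%. *Cbx8* alone remained in the K27M list (1 of 9), where the background was 9.02% of all genes and 12.1% of island genes. No member start site lay in an EZHIP peak (0 of 9), against 7.73% of all genes and 10.2% of island genes. By gene body, *Cbx2*, *Cbx8* and *Bmi1* overlapped K27R peaks (3 of 9, background 36.1%), *Cbx8* a K27M peak (1 of 9, background 11.5%) and no member an EZHIP peak (background 10.6%). In every list the members' count was within 1 gene of what the background share would give for 9 genes, so that these shares are not a result about the Polycomb genes.

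**Figure D1:**
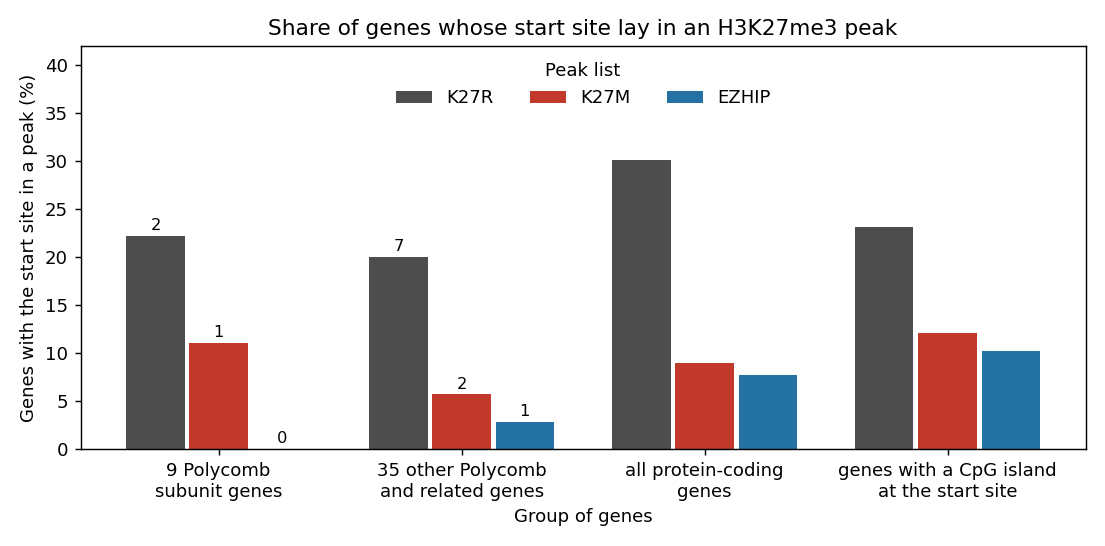
Share of genes with the start site in an H3K27me3 peak (vertical axis, percent, from 0) for the 9 Polycomb subunit genes, 35 other Polycomb and related genes, all protein-coding genes and genes with a CpG island at the start site. Bars are coloured by peak list (1 library each, no error bars) and numbers above the bars of the first pair of groups count genes; the members stand at 2, 1 and 0 genes in K27R, K27M and EZHIP.

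The 3 PRC2 genes among the members were free of H3K27me3 peaks over their start sites and bodies in all 3 lists. Over all genes, K27R, K27M and EZHIP peaks held 30.1, 9.02 and 7.73% of start sites and touched 36.1, 11.5 and 10.6% of bodies. With 3 genes, their absence from peaks cannot be set against these shares. *Ezh1* (ENSMUSG00000006920.8, chromosome 11, 101052429 to 101087777, minus strand) lay in a peak-free interval of 160.6 kb in K27R. The peak nearest to its start site was 15.4 kb upstream and held the start of *Ramp2*, which encodes an accessory subunit of peptide hormone receptors. This peak was not narrower in the inhibitor lists. It began at the same base, 101103201, in every list. Its width was 5.6 kb in K27R, and the K27M (5.8 kb) and EZHIP (6.4 kb) peaks were as wide or wider.

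*Ezh2* (ENSMUSG00000029687.9, chromosome 6, 47480273 to 47545340, minus strand) had a K27R peak of 5.0 kb that began 9.1 kb upstream of its start site and held no protein-coding start site. Neither inhibitor list had a peak within 1000 kb. The nearest lay 1029.3 kb upstream in K27M and 1030.1 kb upstream in EZHIP, both closest to *Zfp775*, and at least as near a peak were 83.8% and 83.3% of all genes. The *Ezh2* start site sat in a peak-free interval of 162.8 kb in K27R, and this interval was 8175.8 kb long in K27M (8161.0 kb in EZHIP). *Suz12* (ENSMUSG00000017548.9, chromosome 11, 79806608 to 79847625, plus strand) had a K27R peak of 11.2 kb ending 18008 bp upstream, next to *Utp6*. In K27M the nearest peak was 305.4 kb downstream, over the start of *Rhbdl3*, and in EZHIP it was 399.2 kb upstream, over the start of *Rab11fip4*. Around both genes, the K27R peaks had no counterpart at the same place in either inhibitor list.

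**Figure D2:**
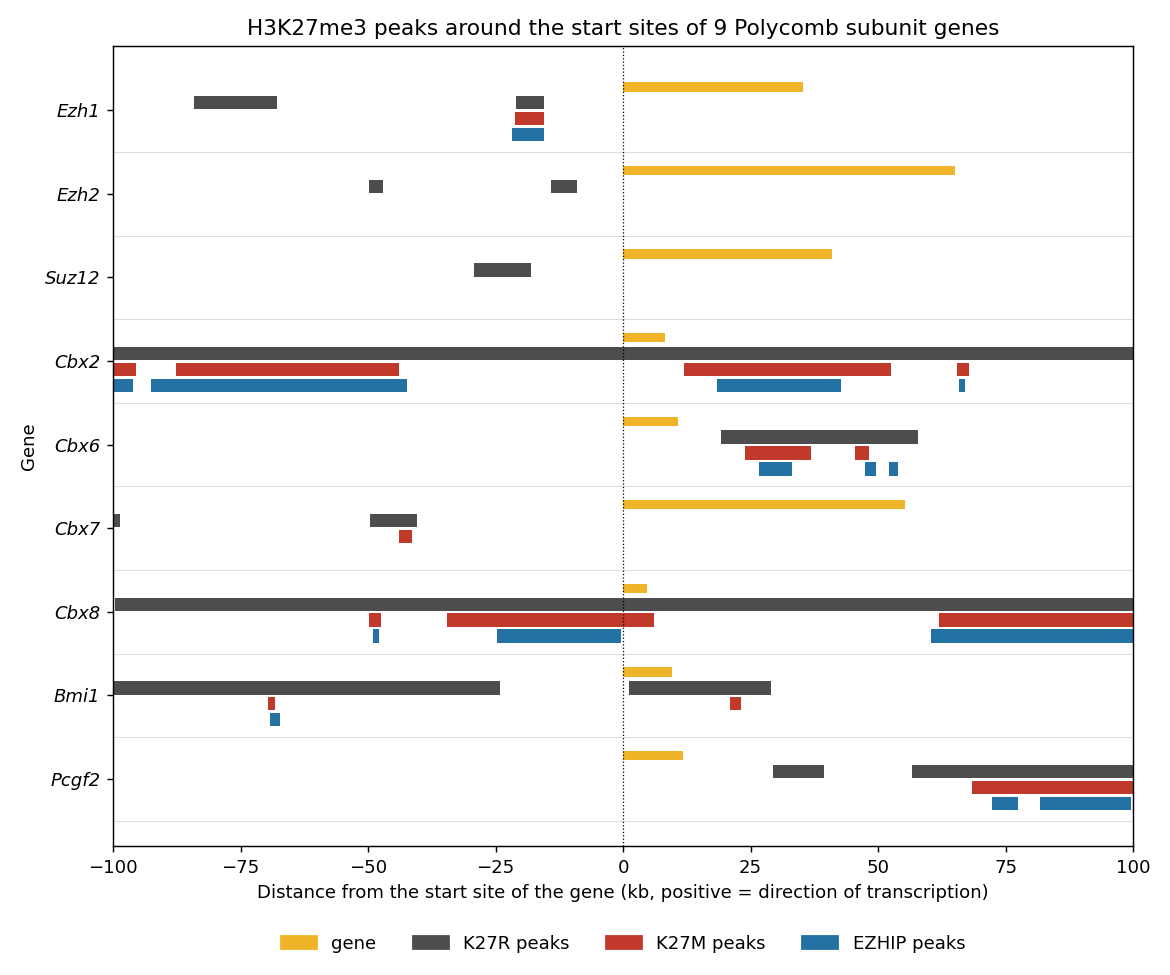
Peaks within 100 kb of each start site (horizontal axis, kb, positive in the direction of transcription), with the gene in yellow and the K27R, K27M and EZHIP peaks of 1 library each in grey, red and blue. Grey bars cross the start sites of *Cbx2* and *Cbx8*, a red bar crosses that of *Cbx8*, and no bar crosses the other 7.

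The CBX genes divided by locus. *Cbx2* (ENSMUSG00000025577.7, chromosome 11, 118884276 to 118892584, plus strand) and *Cbx8* (ENSMUSG00000025578.8, chromosome 11, 118897619 to 118902283, minus strand) lie side by side with their 3′ ends facing each other, so that they are not independent observations. Both genes lay whole within 1 K27R region of 685.6 kb, from 118316201 to 119001800. This was the 35th widest of 12845 K27R regions and the 7th widest of 12093 on the autosomes. The shortest gap between K27R regions was 0 bp, so that these ranks depend on where adjoining regions were cut. The region of 685.6 kb also held the starts of *Engase*, *Enpp7* and *Rbfox3*, a neuronal splicing factor gene whose body took up most of it.

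In K27M cells *Cbx2* and *Cbx8* parted. A K27M peak of 40.6 kb, from 118896201 to 118936800, began 1.4 kb past the 3′ end of *Cbx8*, and covered 100% of the gene with all 4 of its annotated transcript starts. *Cbx2* was left uncovered, with its 3′ end 3.6 kb and its start site 11.9 kb from that peak.

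In EZHIP cells the corresponding peak was shorter and stopped before *Cbx8*. It spanned 24.4 kb, from 118902601 to 118927000, wholly inside the K27M peak. Its near edge lay 318 bp upstream of the *Cbx8* start site, a distance that leaves 1 whole uncovered bin of the 200 bp grid on which peaks were called. The state of *Cbx8* in EZHIP therefore rested on the placement of an edge. A peak within 1000 bp of the start site was present in all 3 lists for *Cbx8*. The *Cbx2* start site was 18.3 kb from the EZHIP peak.

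The stretch retained in both inhibitor lists lay upstream of *Cbx8*, and the EZHIP peak took up 60.1% of the K27M peak. The K27M peak touched 6 CpG islands, among them the one that reaches over the *Cbx8* start site, and the EZHIP peak touched 5 of these. The island at the start of *Cbx2* had no residual peak in either list. Of the 18 islands in the K27R region, 10 lay in a K27M peak and 10 in an EZHIP peak. These island counts have no share over all islands beside them, and whether islands go with retention was not tested.

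**Figure D3:**
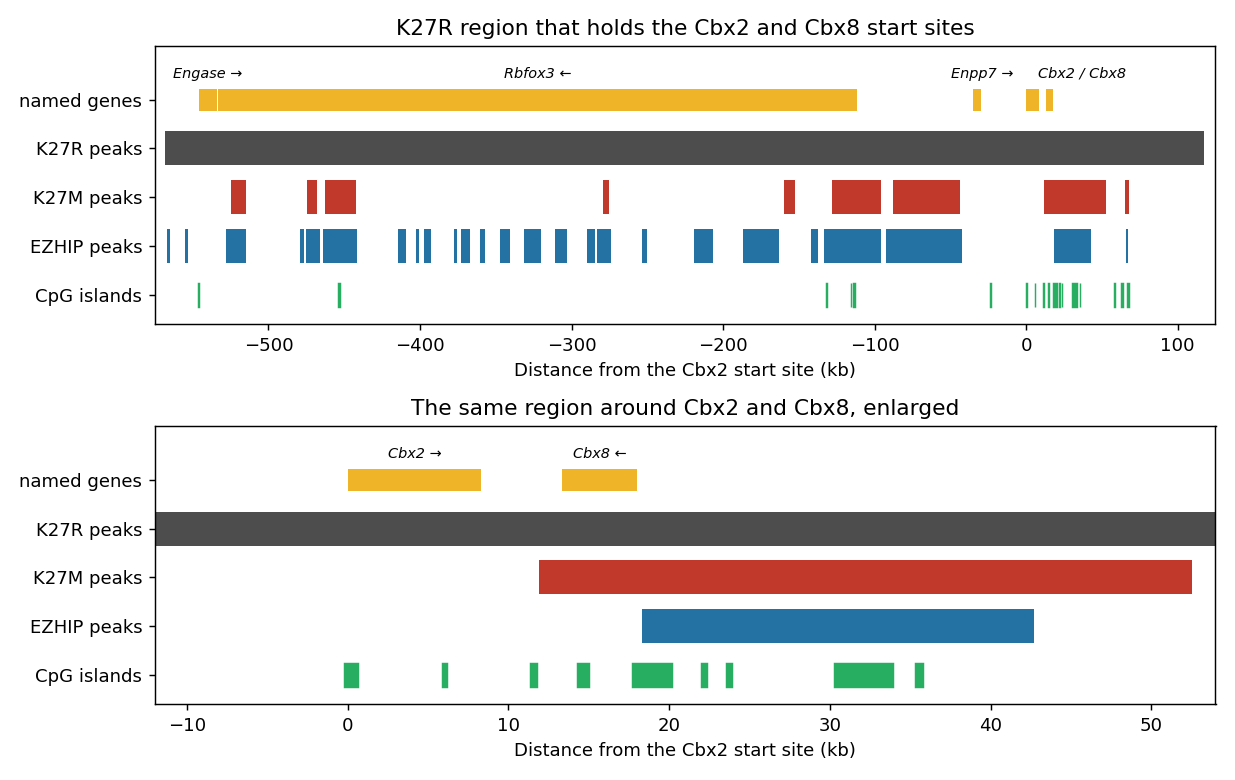
Map of the K27R region around *Cbx2* and *Cbx8*, with distance from the *Cbx2* start site in kb on the horizontal axis and rows for the genes named in the text (arrows give the direction of transcription), peaks of each list and CpG islands; the lower panel enlarges the part around *Cbx2* and *Cbx8*. The K27R peak spans the whole map, the K27M peak of 40.6 kb runs over *Cbx8*, and the EZHIP peak of 24.4 kb begins just upstream of it.

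Over the whole region the order of the inhibitors was the opposite. K27M kept 9 peaks over 167.2 kb (24.4% of the region) and EZHIP 25 peaks over 271.0 kb (39.5%). From the *Cbx2* start site through *Cbx8* to the near end of the region (117.5 kb), K27M covered 36.4% and EZHIP 21.8%, whereas from the far end of the region up to *Cbx2* (568.1 kb) the values were 21.9% and 43.2%. The numbers of peaks are affected by the distance at which neighbours had been left apart, at least 5200 bp in K27M and 1200 bp in EZHIP. The study's methods give a maximum gap setting of 10000 for these peaks, and shorter gaps remained in both lists. With gaps of up to 10000 bp closed in both lists, K27M had 7 and EZHIP 12, over 26.3% and 49.7% of the region. Cover was thus higher in EZHIP than in K27M over the region in both forms, and lower in EZHIP, with peaks as given, from *Cbx2* to the near end.

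*Cbx6* (ENSMUSG00000089715.3, chromosome 15, 79654326 to 79665118, minus strand) and *Cbx7* (ENSMUSG00000053411.9, chromosome 15, 79746237 to 79801549, minus strand) were free of peaks in every list. Their start sites, 136.4 kb apart, shared a K27R peak-free interval of 196.0 kb. Downstream of *Cbx6*, a K27R peak of 38.6 kb began 19.1 kb from its start site. This peak held the starts of *Dnalc4*, which lay in no K27M or EZHIP peak, and of *Nptxr*, a neuronal pentraxin receptor gene. The nearest piece left of it was 13.0 kb wide in K27M, 23.9 kb from the *Cbx6* start, and 6.4 kb wide in EZHIP, 26.7 kb from it, and both pieces held the *Nptxr* start. On the other side, a K27R peak of 9.2 kb over the start of the growth factor gene *Pdgfb* lay 40.5 kb upstream of the GENCODE start of *Cbx7*. From its RefSeq start the nearest peaks were farther in K27R (78925 bp) and K27M (79925 bp) and nearer in EZHIP (124676 bp, against 163.1 kb). In K27M 2.4 kb of the *Pdgfb* peak was left, still over the *Pdgfb* start, and in EZHIP none, which lengthened the peak-free interval from 201.8 kb in K27M to 466.2 kb in EZHIP.

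The PCGF genes also differed from each other. *Bmi1* (ENSMUSG00000026739.7, chromosome 2, 18598645 to 18608256, plus strand), which encodes a PRC1 subunit known for repression of *Cdkn2a*, had a K27R peak of 27.8 kb, from 18599801 to 18627600. The peak began 1156 bp downstream of the start site and covered 88% of the gene body. Of 7 distinct annotated transcript starts, 4 lay inside it and the 3 nearest to the 5′ end, the RefSeq start among them, lay outside. Upstream, the next K27R region ended 24045 bp away, so that the *Bmi1* start sat in a peak-free interval of 25.2 kb, the shortest among the members outside K27R peaks.

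No residual peak touched *Bmi1*. In K27M a peak of 2.2 kb was left of the K27R peak, 21.0 kb downstream of the *Bmi1* start and over the start of *BC061194*. The start of *Gm13334*, between those of *Bmi1* and *BC061194*, lay in the K27R peak and in no K27M or EZHIP peak. In EZHIP nothing remained of the K27R peak, and the peak nearest to the *Bmi1* start was 67.2 kb upstream. *Pcgf2* (ENSMUSG00000018537.9, chromosome 11, 97550137 to 97561811, minus strand) had no peak over it in any list. A K27R peak of 10.0 kb that held the start of *Mllt6* lay 29.4 kb downstream of its start site, and had no counterpart in K27M or EZHIP. Next in line, 68.4 kb (K27M) and 72.4 kb (EZHIP) downstream of the *Pcgf2* start, were peaks over another Polycomb gene, *E130012A19Rik*.

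**Figure D4:**
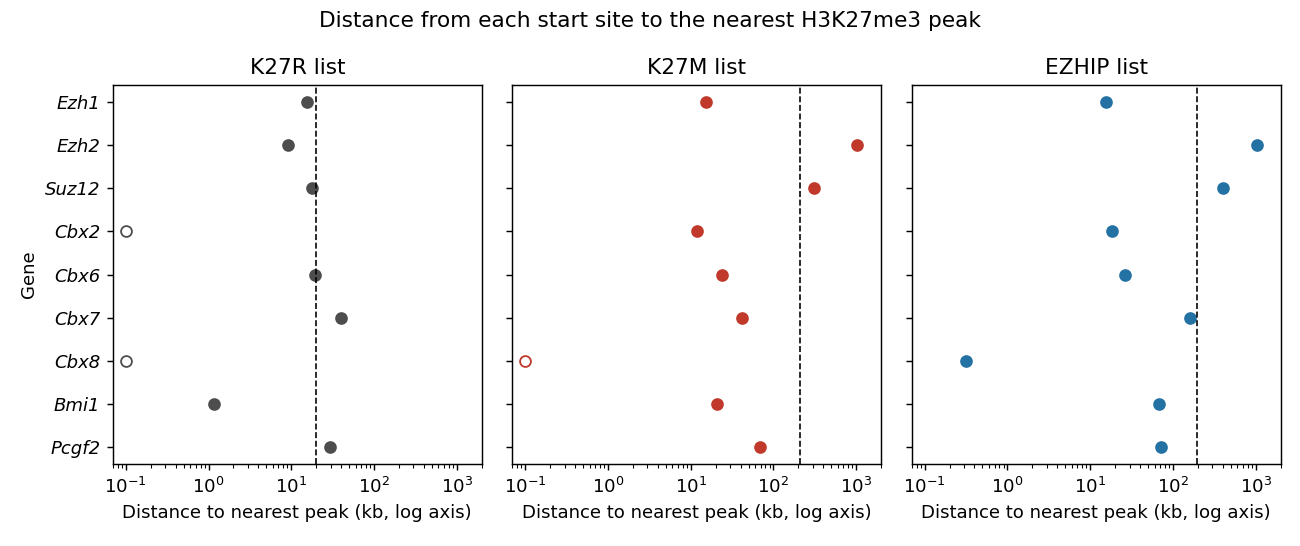
Distance from each start site to the nearest peak (kb, logarithmic axis) in the K27R, K27M and EZHIP lists, 1 point per gene; open points at the left edge are start sites inside a peak, and the dashed line is the median over all protein-coding genes (19.8, 207 and 196 kb). In the K27M and EZHIP panels *Ezh2* and *Suz12* stand to the right of the line, and the other 7 to the left.

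Most members lay nearer to a residual peak than the middle protein-coding gene did. In K27R the median distance was 15.4 kb for the 9 members and 19.8 kb for all genes. In K27M the members had a median of 23.9 kb and all genes 207 kb, and in EZHIP 67.2 and 196 kb. These medians come from 9 genes at 7 loci, of which 5 genes are on chromosome 11, where all genes had a median of 112 kb in K27M and 103 kb in EZHIP. In K27R the median on chromosome 11 was 13.1 kb, below that of the members. Genes with an island at the start had medians of 23.5 kb in K27R, and of 150 (K27M) and 142 kb (EZHIP). At least as near a K27M peak as *Ezh1* were 14.8% of all genes, as *Cbx2* 13.7%, and as *Cbx6* 17.3%.

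Cover was also measured in wider windows around the start sites. Within 50 kb on either side of the start site, K27R peaks covered 100% around *Cbx2* and *Cbx8*, 53.8% around *Bmi1*, 30.9% around *Cbx6* and 5.6% around *Ezh1*. For *Cbx2*, 44.2% was covered in K27M and 32.1% in EZHIP, and for *Cbx8*, 42.8% and 25.6%. *Bmi1* went from 53.8% to 2.2% in K27M and to 0% in EZHIP, while *Ezh1* stood at 5.6, 5.8 and 6.4% in K27R, K27M and EZHIP. *Ezh2*, *Suz12* and *Pcgf2* had no cover in this window in either inhibitor list. Over all genes, the median cover in this window was 14.8% in K27R and 0% in both inhibitor lists, and the members' medians were 11.2, 2.4 and 0%.

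Within 500 kb on either side, the 9 members ranged in K27R from 12% (*Ezh1*) to 74.7% (*Cbx2* and *Cbx8*). *Ezh2* had 26.4% in K27R and 0% in both inhibitor lists. *Bmi1*, with 34% in K27R, had 0.36% in K27M and 0.2% in EZHIP. *Cbx2* had 16.2% in K27M and 25.9% in EZHIP, and with *Cbx8* was the member locus with more cover in EZHIP than in K27M apart from *Ezh1*, which had 1.92 and 2.22%. At the other 5 genes with cover in the inhibitor lists, K27M cover was the higher one, as for *Pcgf2* with 9.32% in K27M and 5.46% in EZHIP. The members' medians were 20.6% in K27R, 5.72% in K27M and 4.18% in EZHIP, where all genes had medians of 26.8, 1.16 and 1%.

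Start sites that lay in K27R peaks were then followed into the inhibitor lists. Over all genes, 29.9% of 6735 such start sites were also in a K27M peak and 25.6% in an EZHIP peak. Of the 2 members, *Cbx8* was kept in K27M, and neither was kept in EZHIP, a number of genes too small to set against these shares.

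A list of 35 other Polycomb and related genes was examined in the same way. In K27R 7 start sites lay in peaks (20%), in K27M 2 (5.71%) and in EZHIP 1 (2.86%). The shares over all genes were 30.1, 9.02 and 7.73%. Of the 7, 3 were on chromosome X (*Rbbp7*, *Scml2* and *Bcor*), where K27R peaks held 74.5% of all start sites. On the autosomes 4 of 31 were in K27R peaks, against 28.2% of all autosomal genes, and the K27M and EZHIP counts, all autosomal, stood beside 8.94 and 7.96%.

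Among the PRC2 genes of this list, *E130012A19Rik* (named *Epop* in RefSeq), a subunit that joins PRC2 to elongin proteins, was in a K27R peak of 136.2 kb and a K27M peak of 36000 bp. In EZHIP peaks covered 29.9% of its body, and the nearest edge of one, 5.0 kb wide, lay 1630 bp from its start site. *Eed* itself had no K27R peak within 284.3 kb. *Rbbp7*, a histone-binding subunit gene, lay whole in a K27R peak of 478.0 kb on chromosome X and had no peak over it in K27M or EZHIP. The other 7 PRC2 genes (*Rbbp4*, *Jarid2*, *Aebp2*, *Mtf2*, *Phf1*, *Phf19* and *Lcor*) were outside peaks in all 3 lists by start site and body.

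The PRC1 genes were examined at their start sites and within 5 kb of them. Of 16, 4 start sites lay in K27R peaks (*Pcgf1*, *Phc2*, *Scml2* and *Bcor*), and another 5 were within 5 kb of one. Over all genes, K27R peaks held 30.1% of start sites and lay within 5 kb of 38.2%. *Scml2* and *Bcor* are on chromosome X, where K27R peaks held 74.5% of all start sites. *Pcgf1*, whose protein belongs to a variant PRC1, was covered whole in K27R, while the nearest K27M peak ended 380 bp and the nearest EZHIP peak 1980 bp upstream of its start. *Pcgf3* had a peak that ended 1051 bp upstream in K27R and K27M and 1251 bp upstream in EZHIP, with widths of 7.4, 1.8 and 4.6 kb. *Rybp* had a K27R region of 98.2 kb ending 766 bp upstream, of which a K27M peak of 8.0 kb was left 27.2 kb upstream and no EZHIP peak within 180.6 kb. *Phc2*, which encodes a polyhomeotic subunit, was the gene of the list with its start in an EZHIP peak (7.0 kb) and no K27M peak within 216.8 kb.

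The remaining genes were mostly free of peaks, as were most protein-coding genes. Over all genes, 30.1, 9.02 and 7.73% of start sites lay in K27R, K27M and EZHIP peaks. On chromosome X, where *Kdm6a* lies, the K27R share was 74.5%. Of the H2A deubiquitinase genes (*Bap1*, *Asxl1*, *Asxl2* and *Asxl3*), *Asxl3* had its start in a K27R peak of 16.6 kb and a K27M peak of 2.4 kb, and the nearest EZHIP peak was 688.8 kb away. The H3K27 demethylase genes *Kdm6a* and *Kdm6b*, whose products remove the mark, had no peak over them in any list, although a K27R peak of 288.8 kb ended 2701 bp upstream of *Kdm6a*. The chromobox genes of HP1 proteins, which read H3K9 methylation and are not Polycomb genes (*Cbx1*, *Cbx3* and *Cbx5*), were likewise outside every peak. *Kdm2b* had no peak at its start and a K27R peak over 5.68% of its body, and *Bcor* kept K27M peaks over 44.7% of its body with its start site 1481 bp outside them.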

How the data were processed

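H3K27me3 ChIP-Seq of MEFs was analysed from 3 of 5 groups, with 1 library each, grouped by sample title. The authors aligned reads to mm9 with bowtie1 (version 1.0.0 in the submitters' processing notes) and called broad peaks with MOSAiCS-HMM, a caller that joins nearby bins, so that edges and gaps depend on its settings. The deposited lists hold chromosome, start and end on a 200 bp grid, with no score, count or p-value. All 20 chromosomes with peaks end inside the mm9 (NCBIM37) lengths.

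A start site or gene body was in a peak when it shared at least 1 bp. CpG islands (26796) were stretches of the mm9 sequence scored 17 for each CG and -1 for each other base, kept if over 200 bp, if G+C reached 50% and if the CG count exceeded 0.6 of its expected value. The alternatives were other start sites and distances, minimum peak widths, merging, and minimum body overlap. Named genes are the 9 members, genes of the list of 35 with a peak over the start site or body, *Eed*, and neighbours at the nearest peaks. Others of the list (*Pcgf3*, *Rybp*, *Kdm6a* and those named as free of peaks) were added after their values were seen. An item planned for the list is not reported here. The members and lists were chosen with earlier results of these data known. Of the marker genes, *Spi1* was not found by that name. On simulated data, the interval tools gave 0 disagreements over 50 lists, and all 99 planted islands were found. Python 3.11.15, numpy 2.4.6, scipy 1.17.1 and matplotlib 3.10.9 were used.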

Additional observations from a re-analysis of the deposited data

How the results depend on the processing

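Among the 9 genes, counts in K27R (2 start sites, 3 gene bodies) and K27M (1 and 1) stayed within 1.5 times under every alternative run. Use of any transcript start raised K27R from 2 to 3 by adding *Bmi1*. In EZHIP the count of start sites was 0 as given and 1, *Cbx8*, with a peak within 1000 bp, with a peak within 5000 bp, or with a peak in the 5000 bp upstream. RefSeq start sites, an alternative chosen after the data were examined and matched for 8 of the 9 members, left the counts at 2, 1 and 0. The K27R count of 2 includes *Cbx2*, which had no RefSeq match, so that its place in a peak was not examined under this alternative. The covered share of each member's body moved in none of 81 comparisons. For the 35 other genes, a distance of 5000 bp gave 13 (K27R), 5 (K27M) and 4 (EZHIP) start sites, where 7, 2 and 1 were given, and the 5000 bp upstream gave 12, 4 and 3. Over all genes the same distances gave 38.2, 11.4 and 11.2%, and 36.1, 10.4 and 9.94%. Peaks of at least 5000 bp left 1 in K27M, and merging up to 10000 bp gave 2 in EZHIP. For all genes, requiring 50% of the body lowered the shares to 4.29% in K27M and 3.33% in EZHIP. The planned restriction to high-scoring peaks was not run, as the lists hold no score. No paired analysis was possible because each group has 1 library. Depth is unknown, so that a missing peak may reflect a call below threshold.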
